A study of Homo sapiens with 9 samples.

Results

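The genes described here are YAP1, WWTR1, TEAD1, TEAD4, ANKRD1, AMOTL2, AJUBA, LATS2, CRIM1 and AXL, the transcriptional effectors of the Hippo pathway with some of their regulators and target genes. They were taken by name from the deposited count table, 10 of its 60676 genes, and the choice was made with earlier results of these data known. All 10 had enough fragments to be tested, as had 15500 genes in all. RNA was sequenced from A549, a long-established human cell line derived from a lung adenocarcinoma, after transduction with a lentiviral short hairpin RNA. In the control group, shNT, the hairpin has no intended target. In the groups shLITATS1-1 and shLITATS1-2 it is directed, at independent sequences, against the long noncoding RNA LITATS1. Every group, the control included, was transduced overnight, cultured for 2 days, put under puromycin and harvested after 3 more days. Each group held 3 libraries. The series calls them biological replicates but does not say whether they were transduced separately, so each p-value speaks only to the spread among the libraries at hand.

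In the Hippo pathway the kinases MST1 and MST2 activate LATS1 and LATS2, which phosphorylate the coactivators YAP (gene YAP1) and TAZ (gene WWTR1) and hold them in the cytoplasm. Unphosphorylated YAP and TAZ enter the nucleus, where they bind DNA through TEAD factors and switch on genes of growth, adhesion and matrix contact, often together with AP-1. Much of this control acts on proteins and their location, which RNA levels do not measure. In lung epithelium the pathway is known for its part in progenitor growth and repair, and in lung adenocarcinoma YAP and TAZ act as growth-promoting factors.

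RefSeq promoter sequences (GRCh38.p14) were found for 7 of the 10 genes, YAP1, WWTR1, ANKRD1, AMOTL2, AJUBA, LATS2 and AXL, with 11 transcript starts among them. TEAD1, TEAD4 and CRIM1 had no entry. The 250 bases before each start were searched on both strands for the core TEAD motif GGAATG, which reads CATTCC on the other strand, and for the AP-1 motif TGANTCA. A TEAD match lay in 5 of the 11 windows, which belong to 5 genes, while 11.9% of 35116 RefSeq windows of that length and 14.3% of 27305 genes hold one. An AP-1 match lay in 1 of the 11 windows, that of ANKRD1, while 6.57% of all windows and 8.06% of genes hold one. Matches describe letters and are not evidence of binding. The stretches around these TEAD matches and the AP-1 match of ANKRD1 are shown because they are the places in these windows that hold a searched motif. Each is read 5′ to 3′ on the gene's own strand, with the matched motifs in capitals.
YAP1: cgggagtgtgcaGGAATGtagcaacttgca
ANKRD1, first TEAD match: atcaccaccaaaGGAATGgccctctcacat
ANKRD1, second TEAD match: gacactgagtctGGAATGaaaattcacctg
ANKRD1, AP-1 match: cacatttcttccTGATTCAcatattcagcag
AMOTL2: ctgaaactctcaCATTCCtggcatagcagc
AJUBA: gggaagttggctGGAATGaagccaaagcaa
AXL: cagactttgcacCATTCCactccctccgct
The YAP1 stretch is chr11:102110273-102110302 on the plus strand, and its match begins 162 bases before the start. In ANKRD1, on the minus strand, the stretches are chr10:90921290-90921319, chr10:90921198-90921227 and chr10:90921264-90921294, with matches that begin 220, 128 and 195 bases before the start. The AMOTL2 stretch is chr3:134374499-134374528 on the minus strand (69 bases before its second start). The AJUBA stretch is chr14:22976884-22976913 on the minus strand (59 bases before its second start). The AXL stretch is chr19:41226531-41226560 on the plus strand (212 bases before its second start), inside the annotated AXL gene but in none of its GENCODE 29 exons. The AMOTL2 and AJUBA stretches, the second ANKRD1 stretch and a part of the ANKRD1 AP-1 stretch overlap exons of these genes in GENCODE 29.

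The promoter of YAP1 is given in full because it is the coactivator gene whose own window holds a TEAD match. It is chr11:102110197-102110446 on the plus strand, overlaps no YAP1 exon in GENCODE 29, and holds 1 TEAD match, in capitals, and no AP-1 match.
YAP1 promoter: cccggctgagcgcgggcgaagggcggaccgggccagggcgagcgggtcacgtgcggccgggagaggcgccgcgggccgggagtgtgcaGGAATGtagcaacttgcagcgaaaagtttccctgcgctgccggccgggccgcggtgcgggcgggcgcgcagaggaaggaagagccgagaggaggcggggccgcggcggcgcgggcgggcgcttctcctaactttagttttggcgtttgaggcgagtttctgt
For comparison, CCN2, a widely used YAP and TAZ target that is not among the 10 genes, had 3 TEAD matches in its window, at 169, 104 and 95 bases before the start on the minus strand. These stretches are chr6:131951524-131951553 and chr6:131951459-131951488, the latter with a neighbouring pair of matches.
CCN2, first match: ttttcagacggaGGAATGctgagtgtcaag
CCN2, its other matches: ggaaggtggggaGGAATGcgaGGAATGtcc

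**Figure D1:**
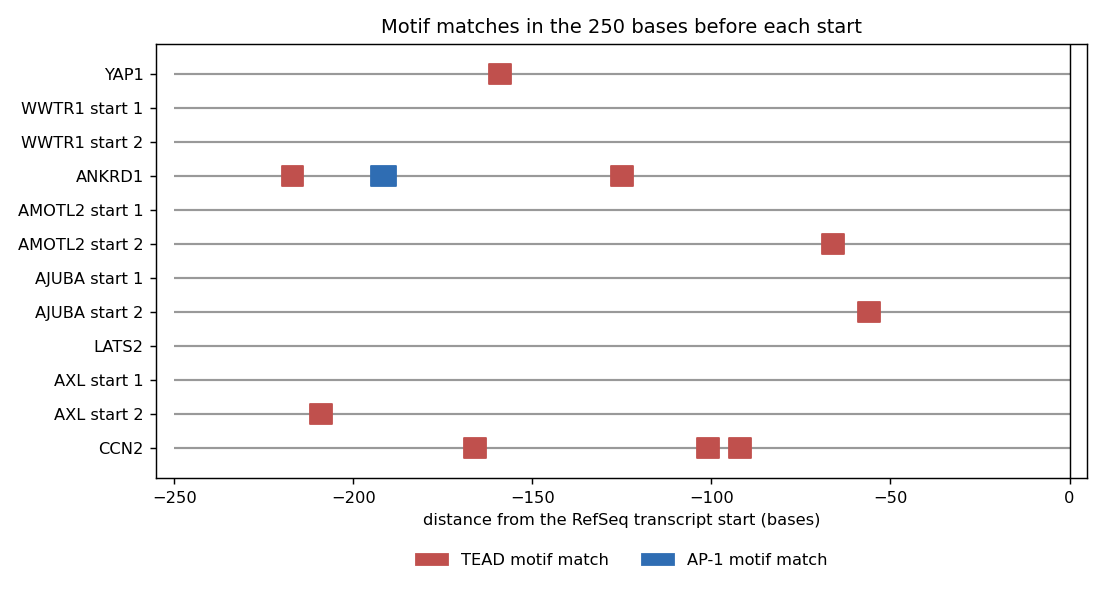
Positions of TEAD (red) and AP-1 (blue) motif matches in the 250 bases before each RefSeq transcript start (x axis, bases from the start), for the 11 starts of 7 genes and for CCN2. ANKRD1 has 2 TEAD matches and 1 AP-1 match, CCN2 has 3 TEAD matches, and the WWTR1 and LATS2 windows have none.

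Libraries held 24556848 to 24671296 fragments, and 19610514 to 19989652 of these were counted to a gene. LITATS1 was lowered as the labels say, from 15.1 ± 1.51 CPM (counts scaled to a fixed library total; SD, n = 3) with shNT to 3.33 ± 0.405 for the first hairpin and 3.02 ± 0.321 for the second. Markers of simple epithelium fit the label: 6 of 6 were detected, and their summed level, mostly KRT8, KRT18 and KRT7, was 5511 to 5795 CPM with shNT, 9042 to 9215 with shLITATS1-1 and 5207 to 5521 with shLITATS1-2. Not all of them followed the sum. With shLITATS1-2 the mean sum went from 5665 to 5408 CPM, while KRT19 rose by 1.00 and KRT7 by 0.14 on the log2 scale. KRT8, KRT18 and CDH1 fell there, by 0.14, 0.26 and 0.46, and EPCAM did not pass. With shLITATS1-1 the 4 keratin genes rose, but CDH1 (-0.089) and EPCAM (0.22) did not pass. Of 6 fibroblast markers COL1A2 and DCN stayed at or under 0.0876 CPM on average in every group, and the list summed to 2.91 to 3.54, 5.42 to 5.83 and 2.03 to 2.40 CPM. Within that list LUM rose from 0.461 to 3.59 CPM with shLITATS1-1 (log2 2.95), while THY1 fell by 1.02 and 1.29 with the hairpins. Of 5 leukocyte markers PTPRC, CD3E and LYZ were at or under 0.0321 CPM, with CD14 making up nearly all of sums of 1.23 to 1.64, 1.89 to 3.05 and 5.04 to 6.08 CPM. The 4 endothelial markers summed to at most 0.869 CPM. The part of these marker shifts in the results below was not tested, and in bulk RNA fewer cells of a type and less RNA per cell cannot be told apart. Levels here and below, those of LITATS1 and the markers included, are CPM after TMM scaling. This sets libraries on a common scale from the bulk of genes. Tests are two-sided quasi-likelihood tests of edgeR, adjusted over all 15500 genes by the Benjamini-Hochberg method, with a threshold of 0.05. Fold changes are on edgeR's log2 scale.

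The hairpins moved the 10 genes differently. With shLITATS1-1, 4 rose (YAP1, WWTR1, TEAD1 and CRIM1), 4 fell (TEAD4, AMOTL2, AJUBA and AXL), and ANKRD1 and LATS2 did not pass. Of all tested genes 61% were called in this comparison, 30.5% higher and 30.5% lower, so 8 of 10 is a count in an experiment where most genes pass. With shLITATS1-2, 9 fell and TEAD4 rose, and here 56.7% of all genes were called, 27.8% higher and 28.9% lower. The median log2 fold change of the 10 was 0.054 with shLITATS1-1 and -0.29 with shLITATS1-2, against -0.0070 and -0.0040 over all tested genes. Both comparisons use the same 3 shNT libraries. Compared directly, shLITATS1-2 was lower than shLITATS1-1 for 6 of the genes (YAP1, WWTR1, TEAD1, ANKRD1, LATS2 and CRIM1), higher for 3 (TEAD4, AMOTL2 and AXL) and did not pass for AJUBA. In that comparison 60.9% of all genes were called, 30.7% higher and 30.2% lower, and the medians were -0.30 for the 10 and 0.015 for all. Scaling by library size alone called 6054 genes higher and 2968 lower with shLITATS1-2, against 4302 and 4485 here, and 6911 and 3293 between hairpins, against 4755 and 4684. Under it 7 of the 10 genes fell and 1 rose with shLITATS1-2. The single rise, that of TEAD4, lost its call in 7 alternatives, which left 0 of the 10 called higher. Its value stayed positive in each of them. The TEAD1 rise with shLITATS1-1 passed by a small margin. It lost its call in several alternatives, DESeq2 among them, where 3 of the 10 were called higher with shLITATS1-1.

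**Figure D2:**
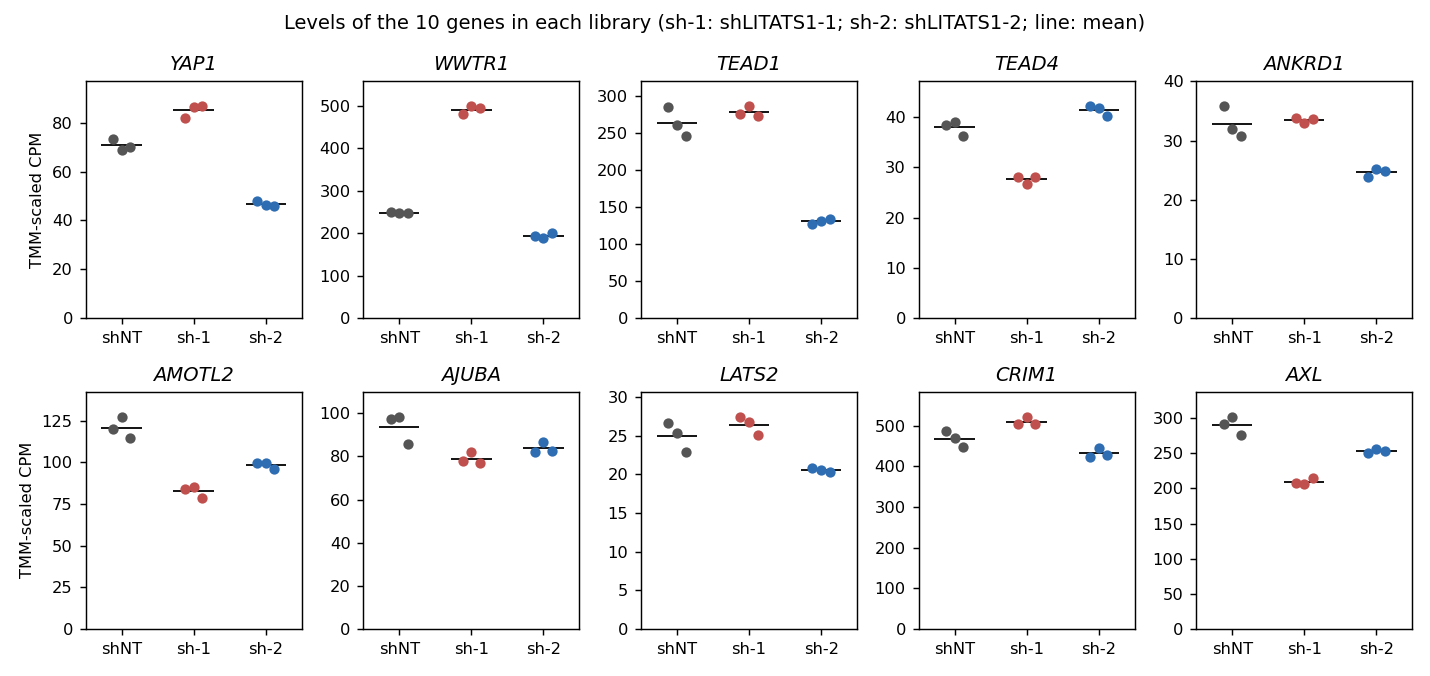
TMM-scaled CPM (y axis) of the 10 genes in each of the 9 libraries, by hairpin (sh-1 is shLITATS1-1, sh-2 is shLITATS1-2); points are libraries and lines are group means. WWTR1 is at 479.9 CPM or more with shLITATS1-1 and at most 250.4 CPM in every other library, and TEAD1 is at most 134.0 CPM with shLITATS1-2 and at least 246.7 CPM in every other library.

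YAP1 and WWTR1 encode the pathway's paired coactivators, and both rose with shLITATS1-1 and fell with shLITATS1-2. YAP1 (ENSG00000137693, chr11:102110461-102233423, plus strand) stood at 73.5, 68.8 and 70.1 CPM with shNT, 81.8, 86.6 and 86.6 with shLITATS1-1, and 47.96, 46.5 and 45.9 with shLITATS1-2. The 3 groups did not overlap, with shLITATS1-1 highest and shLITATS1-2 lowest. The log2 fold change was 0.26 (SE 0.041, edgeR with Benjamini-Hochberg adjusted p = 7.6e-08) with shLITATS1-1 and -0.60 (SE 0.044, adjusted p = 1.45e-19) with shLITATS1-2. Directly compared, shLITATS1-2 was at 55.04% of shLITATS1-1, a log2 difference of -0.86 (SE 0.043, edgeR with Benjamini-Hochberg adjusted p = 2.77e-28).

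WWTR1 (ENSG00000018408, chr3:149517235-149736714, minus strand), which encodes TAZ, had the widest range between hairpins among the 10 genes. Its libraries read 250.4, 247.3 and 246.5 CPM with shNT, 479.9, 498.3 and 493.9 with shLITATS1-1, and 193.3, 189.2 and 200.6 with shLITATS1-2. Again no groups overlapped, and the shLITATS1-1 libraries stood far above the other 6. The gene rose 1.98-fold with shLITATS1-1 (log2 0.98, SE 0.030, edgeR with Benjamini-Hochberg adjusted p = 7.68e-41) and fell to 78.4% with shLITATS1-2 (log2 -0.35, SE 0.031, adjusted p = 5.06e-16). Between hairpins the log2 difference was -1.34 (SE 0.031, edgeR with Benjamini-Hochberg adjusted p = 1.35e-48). Opposite-strand genes overlap 9.97% of the YAP1 exon length and 9.45% of that of WWTR1. The first was at 0 CPM and WWTR1-AS1 at or under 0.99 CPM on average in each group.

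Per exon length, in FPKM (CPM per 1000 exon bases), the WWTR1 level was above the YAP1 level in every library. Their sum was 40.7 ± 0.618 FPKM (SD, n = 3) in the control, 71.8 ± 1.57 for shLITATS1-1 and 30.5 ± 0.631 for shLITATS1-2. YAP1 made up 27.6% ± 0.541, 18.8% ± 0.218 and 24.3% ± 0.812 of that sum. The 3 groups' sums and shares did not overlap, so the balance between the paired genes, as well as their total, differed between groups.

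TEAD1 and TEAD4, DNA-binding partners of YAP and TAZ, differed by hairpin: TEAD1 fell with shLITATS1-2 and TEAD4 with shLITATS1-1. TEAD1 (ENSG00000187079, chr11:12674591-12944483, plus strand) stood at 284.7, 261.3 and 246.7 CPM with shNT, 276.2, 286.1 and 273.8 with shLITATS1-1, and 127.8, 130.8 and 134.0 with shLITATS1-2. The shNT and shLITATS1-1 libraries overlapped, and those with shLITATS1-2 lay far below both. TEAD1 fell to 49.5% of shNT with shLITATS1-2 (log2 -1.01, SE 0.036, edgeR with Benjamini-Hochberg adjusted p = 7.56e-32). With shLITATS1-1 the change was 0.077 (SE 0.035, edgeR with Benjamini-Hochberg adjusted p = 0.0499). This call was lost with DESeq2, under library-size scaling, with no count filter, under the replicate block and without any of 6 single libraries (shNT replicates 2 and 3, each shLITATS1-1 library and shLITATS1-2 replicate 2), and without shNT replicate 3 the value was 0.028 (adjusted p = 0.523). Without shNT replicate 1 it was 0.14 (edgeR with Benjamini-Hochberg adjusted p = 0.000147). Between hairpins it differed by -1.09 (SE 0.036).

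TEAD4 (ENSG00000197905, chr12:2959330-3040673, plus strand) read 38.4, 39.1 and 36.2 CPM with shNT, 28.05, 26.7 and 28.1 with shLITATS1-1, and 42.1, 41.7 and 40.1 with shLITATS1-2. The 3 shLITATS1-1 libraries were the lowest, and the other groups lay close together without overlap. It fell to 72.9% of shNT with shLITATS1-1 (log2 -0.46, SE 0.056, edgeR with Benjamini-Hochberg adjusted p = 6.95e-11). With shLITATS1-2 it rose by 0.12 (SE 0.052, edgeR with Benjamini-Hochberg adjusted p = 0.037), a call that was lost with DESeq2, with no count filter, when shNT replicate 3 or replicate 1 or 2 of shLITATS1-2 was left out, and after GC correction (0.072, adjusted p = 0.205). Under scaling by library size alone that change was 0.24 (edgeR with Benjamini-Hochberg adjusted p = 6.5e-05). Between hairpins TEAD4 differed by 0.58 (SE 0.055, edgeR with Benjamini-Hochberg adjusted p = 5.44e-15).

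The other TEAD genes were lower in level. TEAD2 fell with both hairpins, from a mean of 24.9 CPM to 19.98 (log2 -0.32, SE 0.066) and 18.6 (log2 -0.42, SE 0.066). TEAD3 stood at 10.1, 10.7 and 14.3 CPM, did not pass with shLITATS1-1 (0.096, SE 0.091) and rose with shLITATS1-2 (0.50, SE 0.085). The summed TEAD level per length was 54.1 ± 1.79 FPKM (SD, n = 3) in the control, 49.5 ± 0.380 for shLITATS1-1 and 41.8 ± 0.0273 for shLITATS1-2. TEAD1 was the largest share with shNT (47.5% ± 1.88) and with shLITATS1-1 (54.8% ± 1.43). With shLITATS1-2 TEAD4 was the largest, at 43.4% ± 1.09 against 30.4% ± 0.736 for TEAD1. In CPM, not divided by length, TEAD1 stayed above TEAD4 there, at 130.9 against 41.3. The order by share rests on merged lengths of all annotated exons, 10279 bases for TEAD1 and 2272 for TEAD4.

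**Figure D3:**
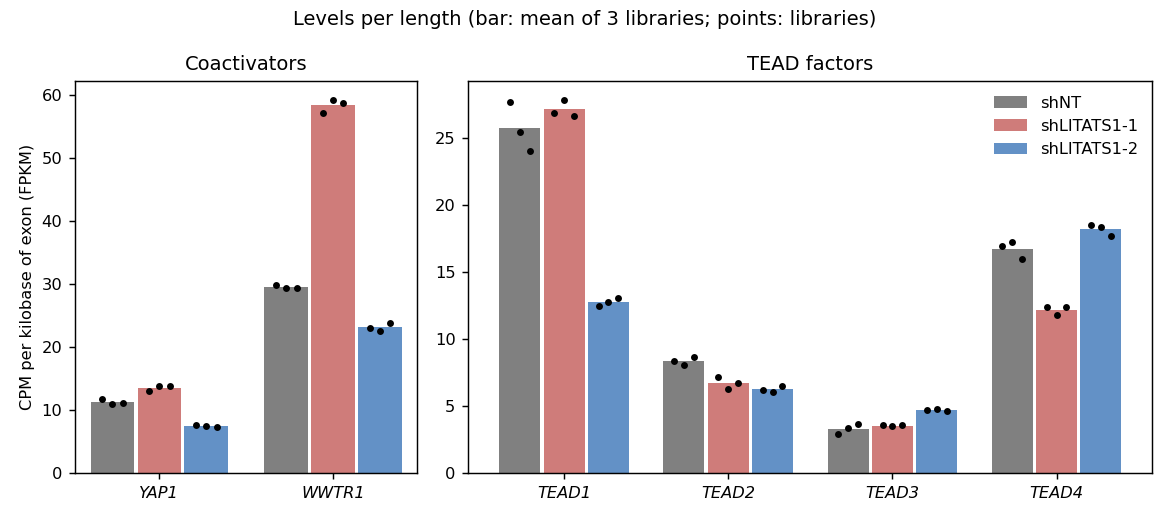
Levels per exon length (y axis, FPKM) of YAP1 and WWTR1 (left) and of the 4 TEAD genes (right) by hairpin; bars are means of 3 libraries and points are libraries. TEAD1 stands above TEAD4 with shNT and shLITATS1-1 and below it with shLITATS1-2 (12.7 against 18.2 FPKM).

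Vestigial-like (VGLL) cofactors bind the same surface of TEAD as YAP and TAZ. VGLL3, which can switch on TEAD-bound genes, rose from 13.98 CPM to 71.1 with shLITATS1-1 (log2 2.35, SE 0.060) and to 22.9 with shLITATS1-2 (0.71, SE 0.071), and the hairpins differed by -1.64 (SE 0.054). VGLL4, known as a TEAD corepressor, rose from 21.0 CPM to 26.6 (0.34, SE 0.063) and 30.02 (0.52, SE 0.061). VGLL1 had no fragment in any library, and VGLL2 averaged at most 0.0351 CPM, so neither was tested. Of the 10 genes in the effector list 8 were tested: 5 rose, 2 fell and 1 did not pass with shLITATS1-1, and 4 rose and 4 fell with shLITATS1-2. The shares of all tested genes called were 61% and 56.7%.

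Among the target genes, ANKRD1, which encodes a nuclear ankyrin repeat protein of stretched muscle and is one of the most used YAP readouts, was lower with shLITATS1-2. ANKRD1 (ENSG00000148677, chr10:90912096-90921276, minus strand) stood at 35.8, 31.9 and 30.7 CPM with shNT, 33.9, 32.9 and 33.7 with shLITATS1-1, and 23.9, 25.2 and 24.9 with shLITATS1-2. The shLITATS1-1 libraries all fell inside the shNT range, and the shLITATS1-2 libraries were below it. It fell to 75.1% of shNT with shLITATS1-2 (log2 -0.41, SE 0.059, edgeR with Benjamini-Hochberg adjusted p = 1.02e-08) and was at 0.031 (SE 0.057, adjusted p = 0.661) with shLITATS1-1. The latter value was 0.10 without shNT replicate 1, 0.0094 without replicate 2, -0.015 without replicate 3 and 0.013 under library-size scaling, and passed in none of them. The hairpins differed by -0.44 (SE 0.060, edgeR with Benjamini-Hochberg adjusted p = 1.21e-09).

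CRIM1 (ENSG00000150938, chr2:36355926-36551135, plus strand) encodes a transmembrane protein that binds bone morphogenetic proteins, and it had the highest level per length of the 10 genes in each group. Its libraries read 486.6, 469.3 and 447.7 CPM with shNT, 504.1, 520.5 and 503.96 with shLITATS1-1, and 423.5, 444.4 and 428.4 with shLITATS1-2. The groups were ordered without overlap, shLITATS1-1 above shNT above shLITATS1-2, by small steps. It rose by 0.12 (SE 0.030, edgeR with Benjamini-Hochberg adjusted p = 0.000289) with shLITATS1-1, and its change was -0.11 (SE 0.030, adjusted p = 0.000824) with shLITATS1-2. The second call was lost under scaling by library size alone (-0.0017, edgeR with Benjamini-Hochberg adjusted p = 0.967). The difference between hairpins, -0.24 (SE 0.030), was -0.11 under that scaling and passed in both.

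AXL (ENSG00000167601, chr19:41219203-41261766, plus strand) encodes a receptor tyrosine kinase for the ligand GAS6 that is known from drug-tolerant lung cancer cells. It stood at 292.0, 301.4 and 275.3 CPM with shNT, 207.4, 206.2 and 214.2 with shLITATS1-1, and 250.1, 256.7 and 253.8 with shLITATS1-2. All 6 hairpin libraries were below the 3 shNT libraries, those with shLITATS1-1 lowest. AXL fell to 72.3% of shNT with shLITATS1-1 (log2 -0.47, SE 0.032, edgeR with Benjamini-Hochberg adjusted p = 2.47e-21) and to 87.5% with shLITATS1-2 (log2 -0.19, SE 0.032, adjusted p = 2.83e-07). The value with shLITATS1-2 was -0.079 under library-size scaling and still passed. Between hairpins the difference was 0.28 (SE 0.032), or 0.18 after GC correction.

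AMOTL2, LATS2 and AJUBA act on the pathway itself: angiomotin-like 2 binds YAP and holds it at junctions, LATS2 is a YAP kinase, and the LIM protein AJUBA binds and restrains LATS kinases. AMOTL2 (ENSG00000114019, chr3:134355874-134375479, minus strand) read 120.2, 127.1 and 114.4 CPM with shNT, 83.7, 85.5 and 78.8 with shLITATS1-1, and 99.4, 99.5 and 95.8 with shLITATS1-2. No groups overlapped, shNT being highest and shLITATS1-1 lowest. It fell to 68.6% of shNT with shLITATS1-1 (log2 -0.54, SE 0.040, edgeR with Benjamini-Hochberg adjusted p = 4.25e-20) and to 81.5% with shLITATS1-2 (log2 -0.30, SE 0.038, adjusted p = 5.09e-10). The hairpin difference was 0.25 (SE 0.040) and passed, as it did at 0.38 under library-size scaling and at 0.13 after GC correction, while the shLITATS1-2 change was -0.18 under the former.

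LATS2 (ENSG00000150457, chr13:20973032-21061547, minus strand), both a kinase of the pathway and a YAP target, was the lowest of the 10 genes per length. It stood at 26.7, 25.3 and 22.9 CPM with shNT, 27.4, 26.7 and 25.1 with shLITATS1-1, and 20.8, 20.6 and 20.3 with shLITATS1-2. The shNT and shLITATS1-1 libraries overlapped and the shLITATS1-2 libraries were below both. It fell to 82.5% of shNT with shLITATS1-2 (log2 -0.28, SE 0.065, edgeR with Benjamini-Hochberg adjusted p = 0.000173), or by 0.17 on the log2 scale under library-size scaling, where it passed too. With shLITATS1-1 the value was 0.081 (SE 0.063, edgeR with Benjamini-Hochberg adjusted p = 0.266), 0.14 without shNT replicate 1 and 0.021 without replicate 3, with no call. Its hairpin difference was -0.36 (SE 0.064), or -0.23 under library-size scaling.

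AJUBA (ENSG00000129474, chr14:22971174-22982642, minus strand) read 97.2, 98.2 and 86.0 CPM with shNT, 77.7, 82.0 and 76.8 with shLITATS1-1, and 82.1, 86.9 and 82.5 with shLITATS1-2. The shLITATS1-1 libraries were below shNT, and 1 shLITATS1-2 library reached into the shNT range. AJUBA fell to 84.1% of shNT with shLITATS1-1 (log2 -0.25, SE 0.043, edgeR with Benjamini-Hochberg adjusted p = 5.76e-07). With shLITATS1-2 its change was -0.16 (SE 0.042, edgeR with Benjamini-Hochberg adjusted p = 0.000654), which no longer passed under library-size scaling (-0.050, adjusted p = 0.317). The hairpins differed by 0.088 (SE 0.043, edgeR with Benjamini-Hochberg adjusted p = 0.0693), which did not pass but did in 5 alternatives, among them library-size scaling (0.22).

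**Figure D4:**
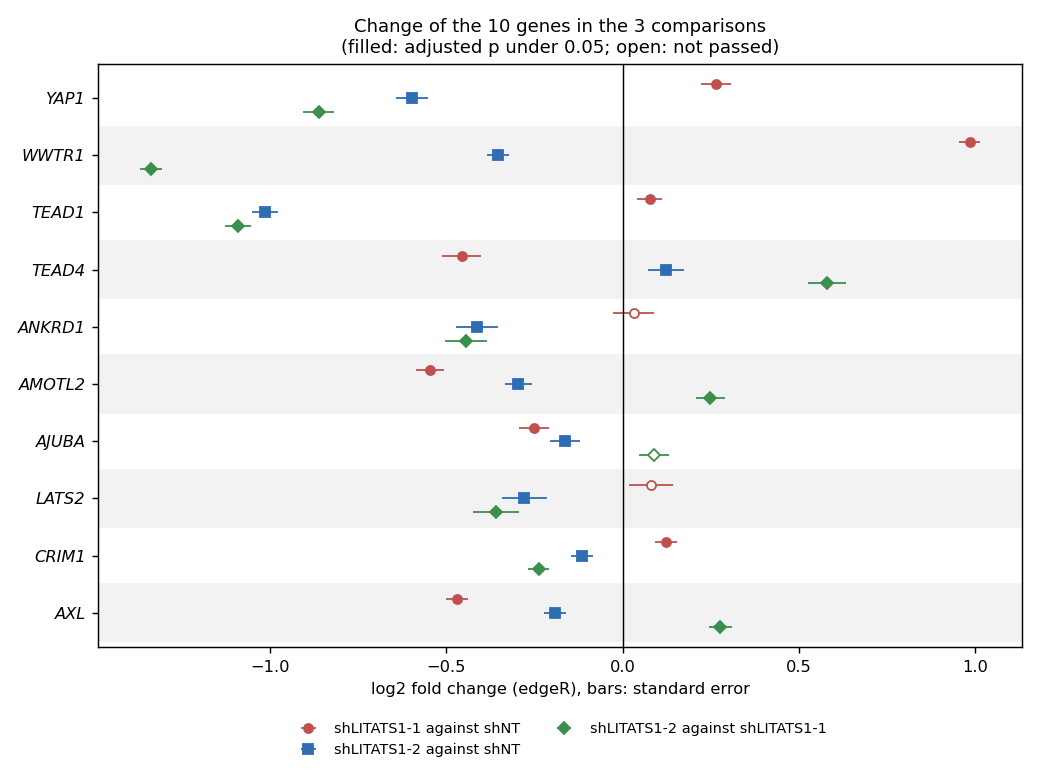
Log2 fold changes (x axis, bars are standard errors) of the 10 genes for each hairpin against shNT and for shLITATS1-2 against shLITATS1-1; filled marks passed the test and open marks did not. WWTR1 lies at 0.98 with shLITATS1-1 and at -0.35 with shLITATS1-2, and TEAD1 at 0.077 and -1.01.

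In FPKM the order with shNT was CRIM1 (65.7), AXL (56.2), WWTR1 (29.5), TEAD1 (25.7), AMOTL2 (20.2), TEAD4 (16.7), ANKRD1 (16.6), AJUBA (15.7), YAP1 (11.2) and LATS2 (4.48), against a median of 3.74 over 15397 tested genes with an exon length. The libraries of TEAD4 and ANKRD1, and of ANKRD1 and AJUBA, overlapped, so these neighbours were not set apart. With shLITATS1-1 WWTR1 came second at 58.3 FPKM, above AXL at 40.6, and AMOTL2, YAP1 and AJUBA, at 13.8, 13.5 and 13.2, overlapped from neighbour to neighbour. With shLITATS1-2 AXL was again second at 49.2 FPKM, and TEAD1 dropped to seventh place at 12.7, overlapping ANKRD1 at 12.5.

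A wider list of 22 YAP and TAZ target genes, which holds ANKRD1, AMOTL2, LATS2, CRIM1 and AXL, was set beside the 10 genes. With shLITATS1-1, 14 of them rose, 4 fell and 4 missed the threshold (median log2 fold change 0.17). With shLITATS1-2, 9 rose, 9 fell and 4 missed the threshold (median -0.032), and between hairpins 5 were higher, 13 lower and 4 did not pass with shLITATS1-2 (median -0.23). Of all tested genes 61%, 56.7% and 60.9% were called in these comparisons, with medians of -0.0070, -0.0040 and 0.015. For the 17 targets outside the 10 genes the counts were 13 up and 2 down with shLITATS1-1 (median 0.54), 9 up and 4 down with shLITATS1-2 (median 0.13), and 3 up and 10 down between hairpins (median -0.22). Under library-size scaling the split of the 22 was 11 up and 8 down with shLITATS1-2, and 7 up and 12 down between hairpins.

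CCN1 and CCN2, secreted matrix proteins and standard YAP readouts, both rose with each hairpin. CCN2 went from 19.8 CPM to 54.4 (log2 1.46, SE 0.057) and 40.0 (1.01, SE 0.059), with a hairpin difference of -0.44 (SE 0.050). CCN1 stood at 89.1, 102.4 and 97.7 CPM, with changes of 0.20 (SE 0.040) and 0.13 (SE 0.040). NT5E, the surface enzyme CD73, rose from 63.2 CPM to 248.7 (1.98) and 270.0 (2.095). F3, tissue factor, rose from 4.56 CPM to 18.1 (1.99) and 10.2 (1.17). RBMS3, an RNA-binding protein gene, rose from 2.36 CPM to 8.19 (1.79) and 4.81 (1.03). FJX1, also on the target list, fell with both hairpins, from 56.4 CPM to 34.9 (-0.69) and 41.4 (-0.45). Other targets went opposite ways: CCDC80, a matrix protein gene, rose by 1.85 with shLITATS1-1 (42.9 to 154.6 CPM) and fell by 0.97 with shLITATS1-2 (to 21.8 CPM). IGFBP3, which binds insulin-like growth factors, rose by 0.70 and fell by 0.34. The hairpins differed by -2.82 for CCDC80 and by -1.04 for IGFBP3.

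**Figure D5:**
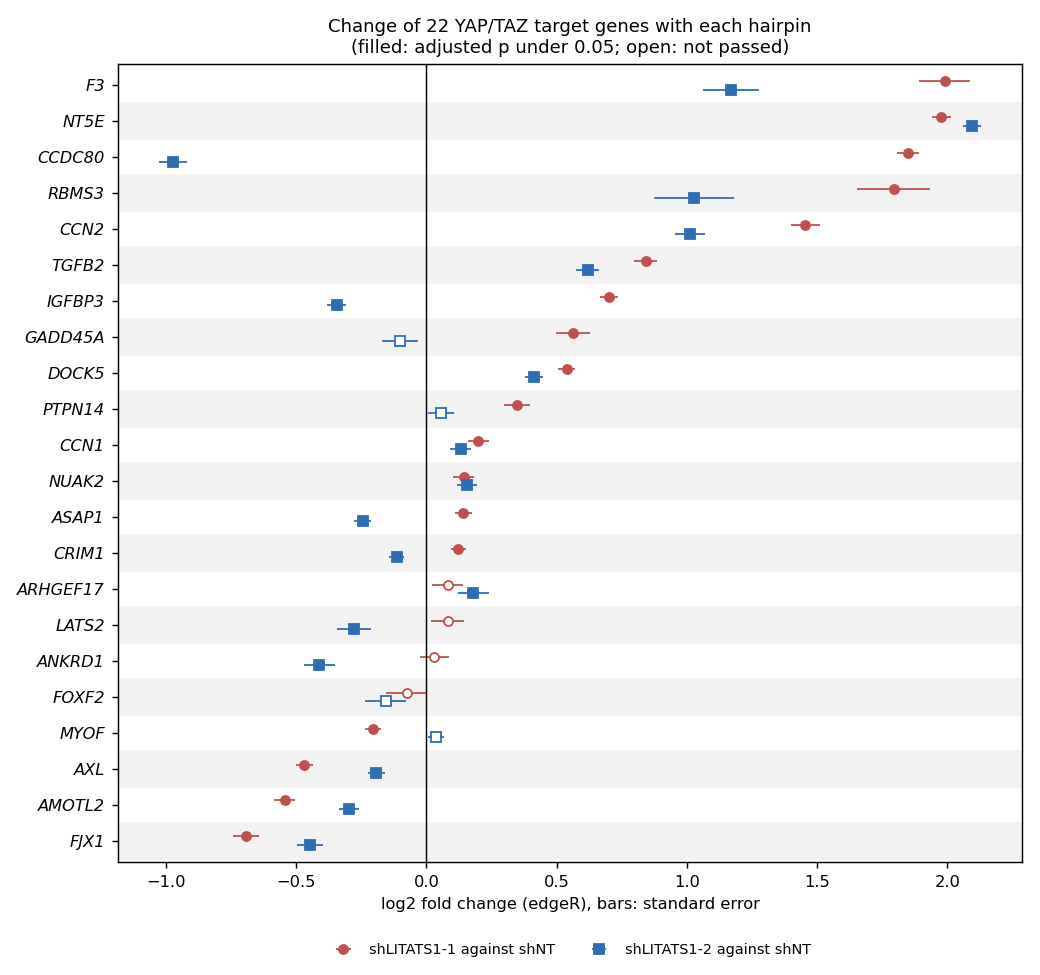
Log2 fold changes (x axis, bars are standard errors) of 22 YAP and TAZ target genes with shLITATS1-1 (red circles) and shLITATS1-2 (blue squares) against shNT, ordered by the former; filled marks passed the test. NT5E lies near 2 with both hairpins, CCDC80 at 1.85 and -0.97, and AMOTL2 and AXL are below 0 with both.

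The upstream pathway was read from lists of kinases with their partners (15 genes), of scaffolds and junction proteins (19, of which 18 were tested) and of the STRIPAK phosphatase complex, which holds MST kinases inactive (12). Among the kinases, which include LATS2, 6 rose, 1 fell and 8 did not pass with shLITATS1-1 (median 0.086), and 6 rose, 5 fell and 4 did not pass with shLITATS1-2 (median 0.12). That is 7 and 11 of 15 called, beside 61% and 56.7% of all tested genes. Of the core kinase genes, STK3 (MST2) was lower with shLITATS1-1 (-0.25) and did not pass with shLITATS1-2 (0.0037). STK4 (MST1) did not pass with shLITATS1-1 (0.086) and was lower with shLITATS1-2 (-0.14). LATS1 passed with neither (0.083 and 0.12). SAV1, also in this list, did not pass with shLITATS1-1 (-0.072) and was lower with shLITATS1-2 (-0.47). MAP4K4, a kinase that can act on LATS in parallel to MST, rose by 0.88 and 0.73, from 126.7 CPM to 232.5 and 210.7. TAOK1 and TAOK3, kinases upstream of MST, rose by 0.26 and 0.29 with shLITATS1-1 and by 0.43 and 0.16 with shLITATS1-2. NF2, the membrane scaffold Merlin, rose by 0.15 and 0.28. MOB1A, an adaptor that activates LATS, rose by 0.17 with shLITATS1-1 and fell by 0.52 with shLITATS1-2. The values for MOB1B were 0.16 and -0.19. The MOB1B call with shLITATS1-2 was lost under library-size scaling (-0.073), after GC correction, and without shNT replicate 1 or shLITATS1-2 replicate 2, and that with shLITATS1-1 without shNT replicate 2 or 3 or shLITATS1-1 replicate 1. The TAOK3 call with shLITATS1-2 was lost without shNT replicate 3 (0.11) or shLITATS1-2 replicate 3 (0.13), and the NF2 call with shLITATS1-1 without shNT replicate 3 (0.12).

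In the scaffold list, which includes AMOTL2 and AJUBA, 5 rose, 9 fell and 4 did not pass with shLITATS1-1 (median -0.19), and 3 rose, 8 fell and 7 did not pass with shLITATS1-2 (median -0.16), that is 14 and 11 of 18 called, beside the same 61% and 56.7%. FRMD6, a FERM-domain protein that activates the kinases, rose by 1.26 and 0.32. LIMD1, a LIM protein related to AJUBA, fell by 0.94 with shLITATS1-1 (33.3 to 17.3 CPM) and by 0.29 with shLITATS1-2 (27.3 CPM). The polarity gene SCRIB fell by 0.25 and 0.37, and the atypical cadherin gene FAT4 by 0.44 and 0.36, with the second FAT4 call lost without shNT replicate 1 (-0.26) and under scaling by library size (-0.25). AMOTL1, the paralog of AMOTL2, fell by 0.33 with shLITATS1-1 and rose by 0.36 with shLITATS1-2. PALS1, a tight junction scaffold, fell by 0.68 with shLITATS1-1 and was at 0.10 (edgeR with Benjamini-Hochberg adjusted p = 0.0411) with shLITATS1-2, a call lost in 10 alternatives, DESeq2 and the replicate block among them.

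Of the STRIPAK genes 3 rose, 5 fell and 4 did not pass with shLITATS1-1 (median -0.054), and 8 rose, 2 fell and 2 did not pass with shLITATS1-2 (median 0.15), 8 and 10 of 12 called. STRIP2, a core scaffold, rose by 0.49 and 0.52, and CTTNBP2NL by 0.45 and 0.31. STRN, a striatin that anchors the phosphatase, fell by 0.14 and 0.54. STRN3, another striatin, did not pass with shLITATS1-1 (-0.043). With shLITATS1-2 it had the largest fall of this list, by 0.90 (45.6 to 24.5 CPM). STRN4 fell by 0.25 and PDCD10 by 0.16 with shLITATS1-1, while they rose by 0.14 and 0.18 with shLITATS1-2. The PDCD10 call with shLITATS1-1 was lost without shNT replicate 1 (-0.11) or shLITATS1-1 replicate 2 (-0.12). Over the 42 tested genes of the 3 lists outside the 10 genes, 14 rose and 13 fell with shLITATS1-1, 17 rose and 12 fell with shLITATS1-2, and 15 were higher and 17 lower with shLITATS1-2 than with shLITATS1-1. These 27, 29 and 32 of 42 stand beside 61%, 56.7% and 60.9% of all tested genes. With LATS2, AMOTL2 and AJUBA included, 17 rose and 15 fell with shLITATS1-2, a split that became 23 and 10 under library-size scaling, and between hairpins 16 higher and 18 lower became 22 and 13.

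Genes whose levels ran most like YAP1 over the 9 libraries were taken from 11474 protein-coding genes by Pearson's r of log2 CPM, as a description without a test, since all of them share the 3 groups. Among the closest were PCDH9, a protocadherin gene (r = 0.997), SLC30A7, a zinc transporter gene (0.996), and CAPZA1, an actin capping protein gene (0.996). As many as 449 genes had r above 0.95 with YAP1. For ANKRD1 the closest included ABHD13 (0.989), STAU2 (0.986), ATP6V1C1 (0.986) and PAPOLG (0.984), with 257 genes above 0.95. Their changes with shLITATS1-2 ran from -0.12 (ATP6V1C1) to -0.73 (ABHD13), and none of these 4 passed with shLITATS1-1.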

How the data were processed

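RNA of 9 libraries from A549 cells, 3 for each of 3 hairpins, was sequenced. The authors deposited raw counts of fragments per gene in 1 table, not normalized. The submitters' processing notes name the build GRCh38 and the tools HTSeq 0.12.4, STAR 2.7.5a, cutadapt 2.10 and FastQC. How strand was treated and which annotation was counted is not given in the sources used here; counts of genes with overlapping or near-identical partners are uncertain. Lines that name no gene held 19.0% to 20.3% of fragments and were left out. Among them, fragments that fit more than 1 gene were 10.2% to 10.9% of the total. Unaligned fragments were 3.66% to 3.86% with shNT and 5.39% to 5.57% with the LITATS1 hairpins. The part of this difference in the results was not tested. Sample titles gave each library's group and number.

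Genes were kept by filterByExpr with a minimum count of 10, and 1 edgeR quasi-likelihood model (robust glmQLFit, 6 residual degrees of freedom) was fitted to all 9 libraries with TMM scaling and Benjamini-Hochberg adjustment over 15500 genes. The standard error is the log2 fold change divided by the root of F. The common biological coefficient of variation was 2.71%, so small changes could pass. All 9 replicate pairs differed by more than sampling noise (chi-square per degree of freedom 1.47 to 2.72 over genes with at least 20 counts). Replicate numbers were not taken as pairs. FPKM values are TMM-scaled CPM per 1000 bases of merged GENCODE 29 exons, and promoters are RefSeq's, matched by symbol. The procedure was run on simulated data for shLITATS1-1 against shNT with few changed genes, as many up as down. Since most genes were called here, that run cannot check the scaling. Software was Python 3.11.15 (matplotlib 3.10.9, pandas 2.3.3, numpy 2.4.6) and R 4.3.3 (DESeq2 1.42.0, limma 3.58.1, edgeR 4.0.16).

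The members and gene lists were chosen with earlier results of these data known. Genes named beside the 10 were CCN1, CCN2, the tested effectors, LITATS1, up to 4 genes of each list called the same way with both hairpins, up to 2 called opposite ways, and the 5 genes most like YAP1 and ANKRD1 whose log2 CPM averaged 1 or more; some genes this rule names are left out. Alternatives were DESeq2, its size factors in edgeR, library size alone, no filter, a filter of 50 counts, a replicate block, the 6 libraries compared, a threshold of 0.01 and the omission of each library. A GC correction was chosen after seeing the data.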

Additional observations from a re-analysis of the deposited data

How the results depend on the processing

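Under 17 other settings and the GC correction, each total of called genes, members, targets and pathway genes, both directions together, stayed within 1.5 times its reported value. By direction, genes lower with shLITATS1-2 went from 4485 to 2968 under library-size scaling, and members higher with it from 1 to 0 in 7 settings. Without 1 library, members called ran from 7 to 8 with shLITATS1-1, 9 to 10 with shLITATS1-2 and 9 to 10 between hairpins. Of 540 values for the members, 514 kept their direction and side of the threshold. Another 20, for TEAD1 with shLITATS1-1 and for TEAD4, AJUBA and CRIM1 with shLITATS1-2, kept their direction but lost the call, and 5 for AJUBA between hairpins gained one. Of 1512 values for the other named genes 1458 were kept, 46 lost a call (12 results) and 4 gained one. FJX1, STK3, STK4, LATS1, SAV1 and STRN3 were not counted among these. ANKRD1 with shLITATS1-1 ran from -0.015 (without shNT replicate 3) to 0.10 as libraries were left out. Between hairpins, CCN1 turned to 0.064, TEAD2 to 0.027 and SCRIB to 0.0021 under library-size scaling, and STRIP2 ran from -0.0091 (without shLITATS1-2 replicate 3) to 0.074; the cause was not tested. Library-size scaling shifted the median of all genes by 0.11 with shLITATS1-2 and by 0.13 between hairpins. With it 67.1% of called genes were higher with shLITATS1-2, against 49.0%, and 67.7% between hairpins, against 50.4%. Deviations from group means correlated by -0.061 to 0.036 over 9 same-numbered pairs and by -0.036 to 0.053 over differently numbered ones. Taken over all tested genes, such values cannot settle whether the numbers mark pairs, which the labels do not state. With the replicate block 9295 and 8630 genes were called with the hairpins and 9264 between them, and the TEAD1 value with shLITATS1-1 lost its call (0.078, edgeR with Benjamini-Hochberg adjusted p = 0.0652), as did PALS1 with shLITATS1-2 (adjusted p = 0.058).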
